A study of Homo sapiens with 15 samples.

Results

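The collagen chain genes, which encode the alpha chains of the collagen family, were taken as every protein-coding gene whose name reads COL, a number, A and a number in the deposited tables of both cell lines. Matched by gene identifier, 43 such genes were found among 52684 genes shared by the tables. One further gene of this name, COL26A1, was left out because the MG-63 table calls it a polymorphic pseudogene. Saos2 and MG-63, established human osteosarcoma lines grown in high-glucose medium with serum, had their messenger RNA sequenced after 24 h with DDR, Roc or vehicle. DDR (didesmethylrocaglamide) and Roc (rocaglamide) are rocaglates that inhibit the RNA helicase eIF4A, and DDR lacks the methyl groups that Roc carries on its amide nitrogen. Saos2 cells received 7 nM DDR, 40 nM Roc or 0.04% DMSO, with 3 libraries in each group. MG-63 cells received 5 nM DDR, 25 nM Roc or 0.04% DMSO, with 2 libraries in each group. Each concentration was the growth IC50 of that compound in that line, so the compounds were given at unequal concentrations, and both compounds of a line share its DMSO libraries. The labels call the libraries biological replicates, except for 1 MG-63 Roc library called a replicate only, so p-values measure the spread between these libraries of a pair of lines.

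Collagens are trimers of chains that are rich in glycine-X-Y repeats, and the family is divided by the structures the trimers build. Fibrillar collagens form the banded fibrils of bone, tendon and cartilage, with type I (COL1A1 and COL1A2) the main protein of bone matrix. Type IV and the short-chain types build networks, type VI builds beaded filaments, the fibril-associated (FACIT) types decorate fibrils, and transmembrane types sit in the cell surface.

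The repeat can be read in the exons. Of 649 coding exons of the 11 fibrillar genes, 538 (82.9%) had a length that is a multiple of 9 bases, the length that codes for 1 glycine-X-Y unit, and 305 were exactly 54 bases long. Among coding exons of all protein-coding genes, 14.3% had such a length and 0.689% were 54 bases long. One 54-base exon of each of the 5 fibrillar chains that lead the levels given below is shown in the sense of the gene, with coordinates on GRCh37 and the glycine codon (GGN) that starts each glycine-X-Y unit in capitals.
COL1A1, coding exon 8, chr17:48275310-48275363, minus strand: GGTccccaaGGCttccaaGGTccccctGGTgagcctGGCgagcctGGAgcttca
COL1A2, coding exon 8, chr7:94034005-94034058, plus strand: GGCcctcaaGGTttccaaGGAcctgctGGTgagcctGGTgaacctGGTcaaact
COL3A1, coding exon 6, chr2:189852807-189852860, plus strand: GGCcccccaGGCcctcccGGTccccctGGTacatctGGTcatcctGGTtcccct
COL5A1, coding exon 15, chr9:137645696-137645749, plus strand: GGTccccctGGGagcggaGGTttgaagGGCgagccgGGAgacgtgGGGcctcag
COL5A2, coding exon 6, chr2:189962003-189962056, minus strand: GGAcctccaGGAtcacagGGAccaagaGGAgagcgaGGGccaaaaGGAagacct
Each of these exons holds 6 glycine-X-Y units, every one starting with a glycine codon. In COL1A1 all 21 exons of 54 bases held such a codon at the start of every unit, in COL3A1 all 24, in COL5A2 all 24, in COL5A1 all 29 and in COL1A2 23 of 24. The share of exons with a length that is a multiple of 9 bases was 46.6% in the basement membrane network genes, 50.8% in the beaded filament genes, 52.3% in the FACIT genes and 67.3% in the transmembrane genes.

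Several members are neighbors in the genome. COL4A1 and COL4A2 are read away from each other on chromosome 13 with 126 bases between their canonical starts. This interval is shown because COL4A1 and COL4A2 were nearly silent in Saos2 and expressed in MG-63. It is given on GRCh38.p14 from RefSeq, plus strand, the strand of COL4A2, with a CCAAT box and a GGGCGG motif in capitals.
COL4A1-COL4A2 interval, chr13:110307158-110307283: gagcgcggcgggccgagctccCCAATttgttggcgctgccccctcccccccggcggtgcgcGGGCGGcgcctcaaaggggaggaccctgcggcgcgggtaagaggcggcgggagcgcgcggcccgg
The interval is 80.2% G and C and holds 20 CpG sites. CCAAT was found at position 22 and GGGCGG at position 62 of the interval, both strands having been searched. Of 35116 RefSeq promoters in the table (250 bases before to 50 after a start), 34.6% held CCAAT and 45.0% held GGGCGG, and of 43 promoters of 31 matched collagen genes 14 held CCAAT and 24 held GGGCGG. These matches are a description and do not show binding.

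CPM below are counts scaled to library size. Library totals were 28838167 to 39787425 counts in Saos2 and 24506297 to 42541127 in MG-63, and collagen genes took 1.06% to 1.26% of them in Saos2 and 1.09% to 1.61% in MG-63. Within a line no scaling moved the median log2 fold change of all genes beyond 0.1 except total counts for Roc in Saos2 (-0.107), where the higher share of all calls was 44.4%, against 56.5% with TMM scaling. That share also moved by over 10 percentage points with total counts between Roc and DDR (50.5% against 65.4% in Saos2, 66.3% against 53.8% in MG-63) and between the lines in the Roc response (45.7% against 64.4%) and in DMSO levels (68.0% against 53.7%). In DMSO the median gene was 0.165 higher in Saos2 than in MG-63 with TMM scaling and 0.642 higher with total counts. Of 7 osteoblast markers, 6 exceeded 1 CPM in every Saos2 group and 2 (RUNX2 and SPARC) in every MG-63 group. Of 5 epithelial markers EPCAM alone passed 1 CPM, in Saos2, and the summed level of 5 blood cell markers stayed under 1 CPM everywhere. Summed chondrocyte markers reached 1105 to 1409 CPM with DDR, 969 to 1069 CPM with Roc and 1102 to 1341 CPM with DMSO in Saos2, nearly all from HAPLN1, and 7.45 to 12.5 CPM with DDR, 10.3 to 10.8 CPM with Roc and 18.6 to 19.1 CPM with DMSO in MG-63. ACAN, which defines cartilage, was at 0 in every Saos2 library. Endothelial markers (3 found of 4) summed to 0.385 to 0.731 CPM with DDR and 0.368 to 1.14 CPM with Roc in MG-63, against 2.04 to 2.55 CPM with DMSO, most of it CDH5. Osteoclast markers summed to at most 10.7 CPM in Saos2 and 6.27 CPM in MG-63, CTSK alone passing 1 CPM. The part of these markers in the results was not tested. Genes seen in 1 library of a line only (at least 20 reads there and at most 2 in each other) numbered 9 in MG-63 DMSO replicate 2, 7 in MG-63 DDR replicate 2 and at most 1 in any other library. MG-63 DDR replicate 2 held 145 reads of COL11A1, 112 of HAPLN1 and 7 of COL10A1, against 1, 0 and 0 in DDR replicate 1, so COL11A1 is given with and without it.

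The lines differed in which chains of a collagen type they expressed. In DMSO, 28 of the 38 tested members differed between Saos2 and MG-63 (17 higher and 11 lower in Saos2) by edgeR's quasi-likelihood test, with a Benjamini-Hochberg adjusted p not above 0.05 and a log2 difference of 0.5 or more in size, the rule behind every call below. In that comparison 67.7% of all tested genes were called (36.3% higher and 31.4% lower), and with total counts 21 members were higher and 11 lower. The lines were counted in separate gene tables, so line and table cannot be told apart here, and in bulk RNA fewer cells of a type and less RNA per cell cannot be told apart.

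The type IV chains COL4A1 and COL4A2, the common chains of basement membranes, were nearly silent in Saos2. COL4A1 had 1 read in all 9 Saos2 libraries together, against 1517 and 1824 reads with DDR, 855 and 1505 with Roc and 1146 and 1543 with DMSO in MG-63. COL4A2 had 0 reads in 9 Saos2 libraries, against 1684 and 1892, 831 and 1417 and 960 and 1233 in the same MG-63 groups. Set against a floor of 3 reads over the Saos2 DMSO libraries, COL4A2 was at least 1400-fold lower in Saos2. COL23A1, a transmembrane chain, had 0 reads in the 3 Saos2 DMSO libraries and 889 in the MG-63 pair, which makes it at least 566-fold lower in Saos2.

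Type III and type I were split as well. COL3A1, the chain of type III collagen in soft tissue, had 4, 4 and 4 reads in the Saos2 DMSO libraries. In MG-63 it had 36131 and 43052 (log2 difference -13.57, adjusted p = 1.91e-24). The size of that difference rests on 4 reads in each Saos2 library. COL1A2 had 286, 364 and 359 reads in Saos2, against 36848 and 46039 in MG-63 (-7.29 ± 0.12). COL1A1 was nearer, at -1.62. Per kilobase of exon, COL1A1 was 57.3 to 61 times as high as its partner COL1A2 in Saos2 DMSO libraries and 1.12 to 1.20 times in MG-63 DMSO libraries.

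Type V ran the other way. COL5A1, whose trimers start fibrils and limit their width, had 113151, 138305 and 116204 reads in Saos2 DMSO libraries, against 2343 and 2592 in MG-63 (log2 difference 5.29 ± 0.14, adjusted p = 1.39e-20). Its partner COL5A2 was 1.80 higher in Saos2. Per kilobase, COL5A2 was 1.07 to 1.32 times COL5A1 in Saos2 DMSO libraries and 12.1 to 13.7 times in MG-63.

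In type VI, COL6A3 was lower in Saos2 (log2 difference -7.56 ± 0.22), COL6A1 was 1.05 higher, and COL6A2 did not pass (interval -0.25 to 0.28). Per kilobase, COL6A3 stood at 0.0131 to 0.0156 of COL6A1 in Saos2 DMSO libraries and at 5.61 to 5.89 times COL6A1 in MG-63.

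Some chains known from cartilage were also higher in Saos2. COL10A1, the chain of hypertrophic cartilage, had 1712, 2061 and 2275 reads in Saos2 DMSO libraries and 0 in both MG-63 ones, at least 1060-fold higher in Saos2 against the floor of 3 reads over the group. COL11A1 had 6566, 7143 and 8621 reads, against 50 and 29 in MG-63 (7.20 ± 0.45). COL2A1, the main cartilage chain, had at most 0.482 CPM in any library of either line, and its difference was not called (2.39 ± 1.13, adjusted p = 0.0592). COL7A1, COL8A2, COL9A1, COL9A2, COL14A1, COL19A1, COL21A1, COL22A1, COL24A1, COL25A1, COL27A1 and COL28A1 were higher in Saos2 as well, and COL4A5, COL8A1, COL15A1 and COL16A1 were lower. COL2A1, COL4A4, COL4A6, COL5A3, COL6A2, COL9A3, COL11A2, COL12A1, COL13A1 and COL18A1 were the 10 tested members not called, and COL4A3, COL6A5, COL6A6, COL17A1 and COL20A1 were too low to test.

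**Figure D1:**
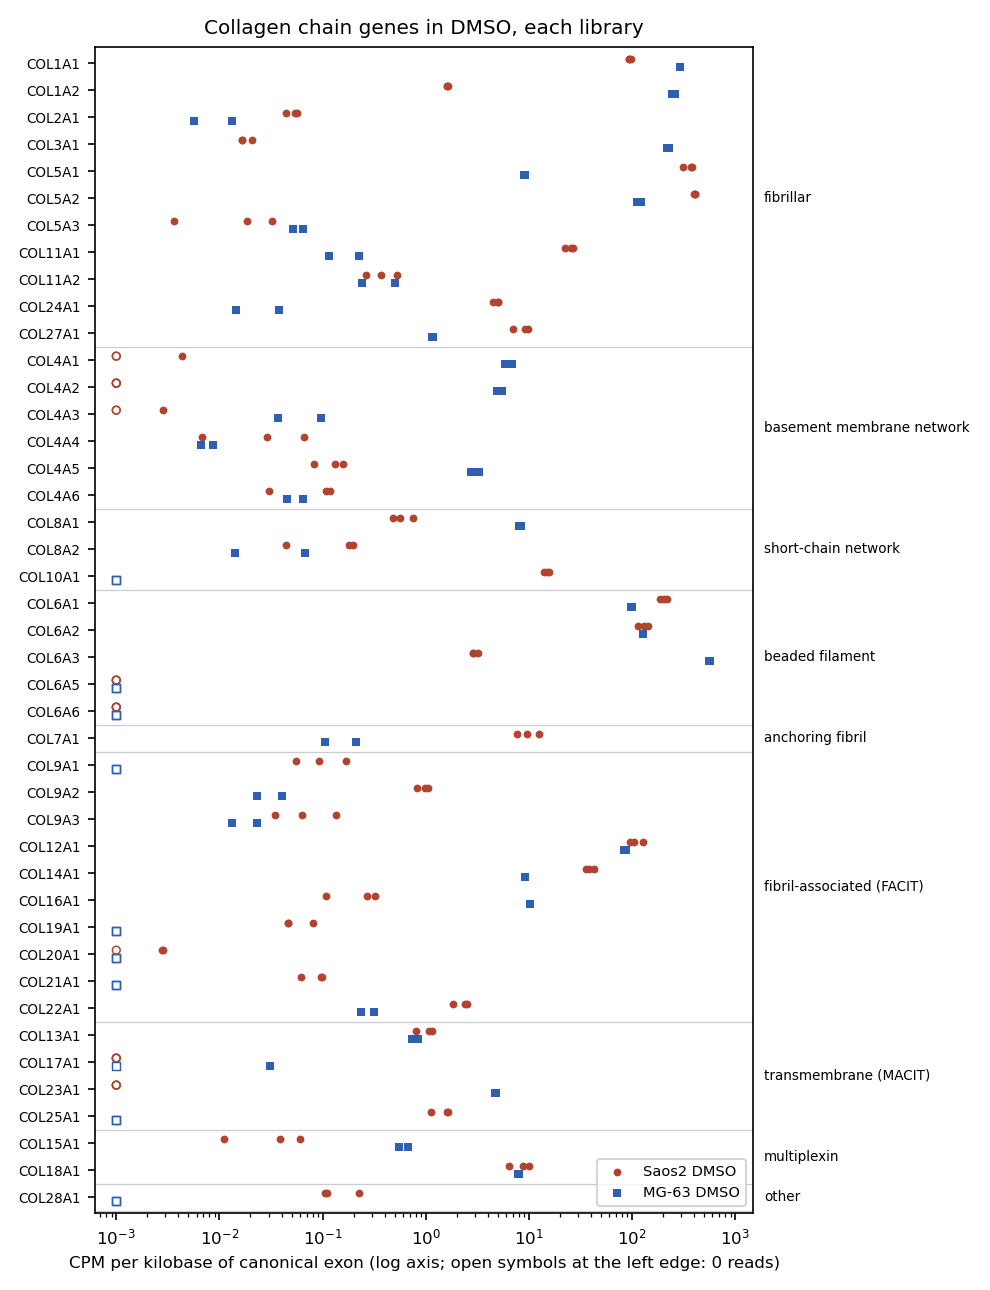
Level of each of the 43 collagen chain genes in the DMSO libraries, as CPM scaled over all 15 libraries per kilobase of the canonical transcript's exons, on a log axis. Circles are the 3 Saos2 libraries and squares the 2 MG-63 libraries, open symbols at the left edge mark 0 reads, and genes are grouped by family. COL3A1, COL4A1, COL4A2 and COL23A1 lie far apart between the lines, with the Saos2 circles at or near 0, and COL10A1 and COL25A1 are at 0 in MG-63.

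Per kilobase, with libraries scaled within a line, COL5A2 led in Saos2 DMSO (454 CPM per kilobase, SD 7.79, n = 3), followed by COL5A1 (396, SD 47.3), COL6A1 (226, SD 21.3), COL6A2 (143, SD 18.1), COL12A1 (121, SD 18) and COL1A1 (106, SD 4.25). The ranges of COL5A2 (447 to 462) and COL5A1 (342 to 432) did not overlap, whereas COL12A1 overlapped with both COL6A2 above it and COL1A1 under it. In MG-63 DMSO, COL6A3 led (461 CPM per kilobase, SD 0.758, n = 2), followed by COL1A1 (239, SD 0.103), COL1A2 (206, SD 9.63), COL3A1 (182, SD 2.41) and COL6A2 (104, SD 1.38), with no overlap between neighbors. With the summed exons of all transcripts as the length, a choice made after the data were seen, COL3A1 stood above COL1A2 and COL5A2 above COL6A2 in MG-63, and the order of these Saos2 chains did not change. Reads of 5 members were absent from all 6 MG-63 libraries and reads of 3 from all 9 Saos2 libraries, and 15 members in MG-63 and 8 in Saos2 stayed under 10 reads in every library.

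The compounds changed some chains and left most uncalled. In Saos2, DDR raised 1 and lowered 4 of 34 tested members, where 14.3% of all tested genes were called (7.55% higher and 6.73% lower). Roc raised 4 and lowered 6, where 23.8% of all tested genes were called (13.5% higher and 10.4% lower). In MG-63, DDR raised 4 and lowered 4 of 25 tested members, where 16.7% of all tested genes were called (9.01% higher and 7.74% lower). Roc raised 2 and lowered 4, where 7.10% of all tested genes were called (4.57% higher and 2.53% lower). The members' median log2 fold change was -0.0726 with DDR and 0.0341 with Roc in Saos2, and 0.216 and 0.236 in MG-63, beside -0.0130, -0.0150, -0.00690 and 0.0128 over all tested genes. A low-count filter that keeps a gene through the group where it is high chose the tested members, so these counts describe them and say nothing of the 9 and 18 that were not tested. Where a call below was lost on leaving out 1 library, the fold without that library is given. The count called with DDR in Saos2 was 2 without DMSO replicate 2 and 3 without DDR replicate 1. In MG-63 the count called with Roc was 3 without DMSO replicate 2, 3 without Roc replicate 2 and 11 without Roc replicate 1.

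**Figure D2:**
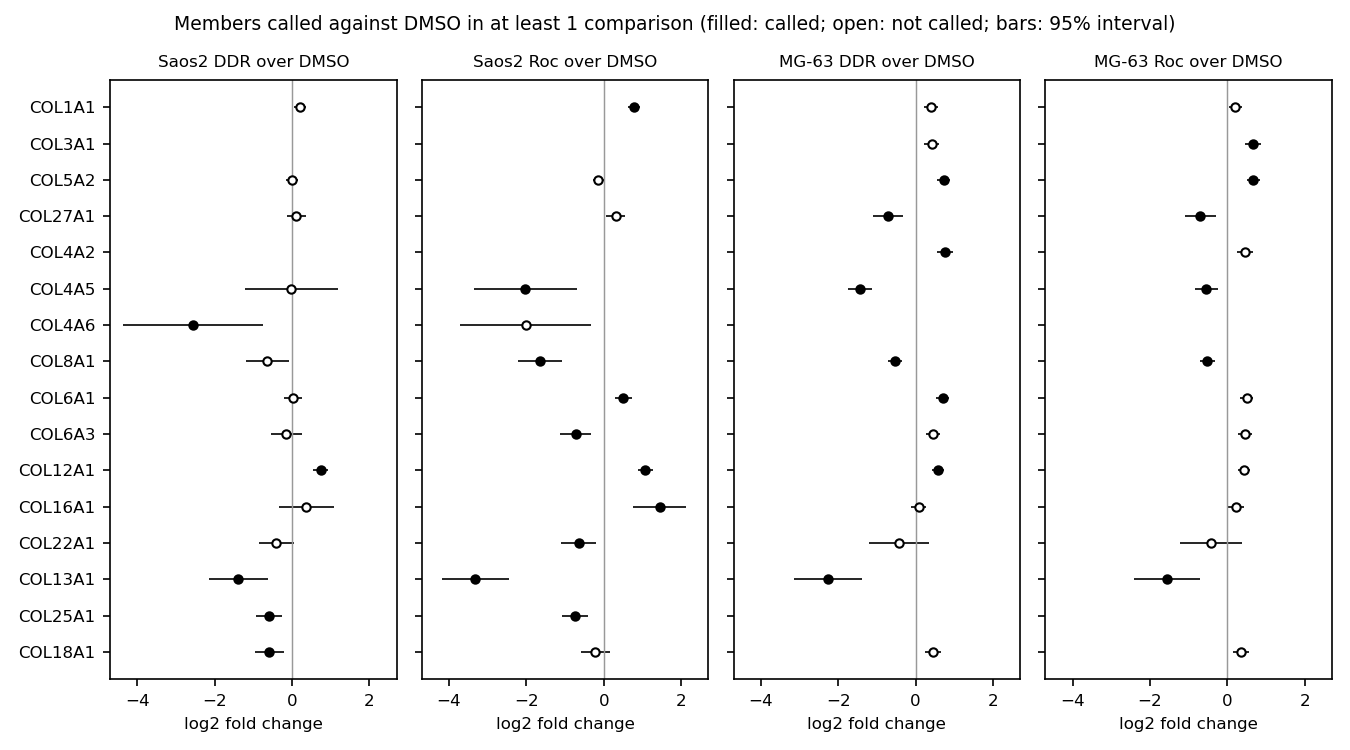
Log2 fold change over DMSO with its 95% interval for the 16 collagen genes called against DMSO in at least 1 comparison, in Saos2 with DDR and Roc and in MG-63 with DDR and Roc. Filled circles were called, open circles were not, and a gene with no circle was not tested in that line. COL13A1 lies left of 0 and filled in all 4 panels (-1.38, -3.32, -2.27 and -1.56).

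Among the fibrillar chains, COL1A1 rose with Roc in Saos2, COL5A2 rose with both compounds in MG-63, COL3A1 rose with Roc in MG-63, and COL27A1 fell with both in MG-63. In Saos2, COL1A1 had 689.9, 737 and 741 CPM with DDR and 1155, 959 and 1128 CPM with Roc, against 656, 612 and 612 CPM with DMSO. The Roc libraries lay above all others (0.79 ± 0.077, adjusted p = 3.72e-08), and the DDR libraries lay above DMSO without passing (0.21 ± 0.077, adjusted p = 0.052). In MG-63, COL1A1 had 1722 and 1986 CPM with DDR and 1505 and 1753 CPM with Roc, against 1411 and 1411 CPM with DMSO. Neither compound reached the fold minimum (0.39 with DDR, 0.21 with Roc), and Roc did not pass on adjusted p either (0.0943). COL1A2 was not called in either line, at -0.11 and -0.074 in Saos2 and 0.19 and 0.29 in MG-63. The ratio of COL1A1 to COL1A2 per kilobase was 70.3 to 76.1 with DDR and 101 to 111 with Roc in Saos2, against 57.3 to 61 with DMSO. Those 3 ranges did not overlap.

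COL5A2 (ENSG00000204262, GRCh37 chr2:189896624-190090038) had 1105 and 1042 CPM with DDR and 948 and 1120.5 CPM with Roc, against 628 and 673 CPM with DMSO in MG-63. Both treated groups lay above DMSO (0.72 ± 0.083, adjusted p = 3.66e-07 with DDR and 0.67 ± 0.083, adjusted p = 4.44e-06 with Roc). In Saos2, COL5A2 had 2984, 3109 and 3197 CPM with DDR and 2886, 2563 and 2979 CPM with Roc, against 3157, 3052 and 3093 CPM with DMSO, and neither compound was called (-0.002 and -0.14). Its partner COL5A1 was not called anywhere, with 2285, 2919.6 and 2224 CPM with DDR and 2830.4, 2658 and 2832 CPM with Roc, against 3649.6, 3482 and 2889.8 CPM with DMSO in Saos2 (-0.43 and -0.27). In MG-63 its fold changes were -0.12 with DDR and 0.017 with Roc, and the ratio of COL5A2 to COL5A1 per kilobase was 21.5 to 24.8 with DDR and 20 to 20.6 with Roc, against 12.1 to 13.7 with DMSO.

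COL3A1 had 1296 and 1371 CPM with DDR and 1349 and 1799.9 CPM with Roc, against 990.4 and 1009 CPM with DMSO in MG-63, and every treated library lay above both DMSO libraries. Roc was called (0.66 ± 0.096, adjusted p = 3.56e-05) and DDR fell short of the fold minimum (0.42 ± 0.096). The Roc call rested on 1 library, at 0.43 without MG-63 Roc replicate 2 (adjusted p = 5.52e-04). In Saos2, COL3A1 had 1 to 12 reads in a library and was not tested.

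COL27A1, a fibrillar chain of cartilage and developing bone, had 5.37 and 3.63 CPM with DDR and 4.54 and 4.52 CPM with Roc, against 7.51 and 7.22 CPM with DMSO in MG-63. It fell with DDR (-0.71 ± 0.19, adjusted p = 0.00448) and likewise with Roc (-0.70 ± 0.19, adjusted p = 0.0115), with no overlap with DMSO. The log2 fold change with DDR was -0.46 without MG-63 DDR replicate 2 (adjusted p = 0.112). That with Roc was -0.72 to -0.67 (adjusted p of 0.0564 to 0.0669) without any 1 of MG-63 DMSO replicate 1, MG-63 DMSO replicate 2 and MG-63 Roc replicate 2. In Saos2 it was not called (0.11 with DDR and 0.31 with Roc).

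COL11A1, which nucleates cartilage fibrils, had 1 and 145 reads with DDR and 6 and 2 with Roc in MG-63, against 50 and 29 with DMSO. The DDR pair spans the other groups, and MG-63 DDR replicate 2 stands apart. With both DDR libraries the fold change was 0.90 ± 0.76 (adjusted p = 0.389), and without replicate 2 it was -5.14 (adjusted p = 0.00142). In Saos2, COL11A1 had 197, 187 and 207 CPM with DDR and 153, 136 and 157 CPM with Roc, against 212, 179.9 and 214 CPM with DMSO. The Roc libraries lay below DMSO without reaching the fold minimum (-0.44 ± 0.083). Of the remaining fibrillar chains, COL24A1 in Saos2 (0.41 with DDR and 0.034 with Roc), COL2A1 in Saos2, and COL5A3 and COL11A2 in both lines were not called, and COL2A1 and COL24A1 were too low to test in MG-63.

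In the networks, COL4A2 rose with DDR and COL4A5 fell with both compounds in MG-63, and COL8A1 fell in both lines. COL4A2 had 43.3 and 49.4 CPM with DDR and 34 and 41.3 CPM with Roc, against 26.3 and 28.9 CPM with DMSO, and all treated libraries lay above DMSO. DDR was called (0.75 ± 0.100, adjusted p = 3.27e-06) and Roc was below the fold minimum (0.45 ± 0.10). COL4A1 had 39 and 47.6 CPM with DDR and 34.9 and 43.9 CPM with Roc, against 31.4 and 36.2 CPM with DMSO and was not called (0.36 ± 0.11 and 0.23 ± 0.11). The ratio of COL4A2 to COL4A1 per kilobase was 1.05 to 1.13 with DDR and 0.955 to 0.986 with Roc, against 0.811 to 0.85 with DMSO, 3 ranges that did not overlap. With the summed exons of all transcripts as the length, COL4A2 (2.41 CPM per kilobase) stood below COL4A1 (2.95) with DDR.

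COL4A5, a chain of the type IV networks of kidney and other specialised basement membranes, had 5.99 and 5.77 CPM with DDR and 9.27 and 12.6 CPM with Roc, against 14.6 and 17.4 CPM with DMSO in MG-63. It fell with DDR (-1.45 ± 0.15, adjusted p = 9.71e-08) and likewise with Roc (-0.54 ± 0.15, adjusted p = 0.0104), and the groups did not overlap. The log2 fold change with Roc was -0.41 without MG-63 DMSO replicate 2 (adjusted p = 0.183) and -0.36 without MG-63 Roc replicate 1 (adjusted p = 0.117). In Saos2 it had 27, 27 and 30 reads with DDR and 6, 1 and 16 with Roc, against 30, 45 and 24 with DMSO. DDR was not called there (-0.016 ± 0.58), and Roc was (-2.03 ± 0.64, adjusted p = 0.0155), with values of -1.85 without Saos2 DMSO replicate 2 (adjusted p = 0.0587) and -1.52 without Saos2 Roc replicate 2 (adjusted p = 0.0524). COL4A6 starts beside COL4A5 and is named after its values were seen. In Saos2 it had 1, 1 and 8 reads with DDR and 2, 12 and 3 with Roc, against 7, 32 and 35 with DMSO. DDR was called there (-2.56 ± 0.87, adjusted p = 0.0311) on groups that overlapped. The DDR value was -2.38 to -2.11 (adjusted p of 0.0925 to 0.142) without DMSO replicate 2 or 3 or DDR replicate 1 or 2. Roc was not called in Saos2, and COL4A6 was too low to test in MG-63.

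COL8A1, a short chain of networks in vessel walls and the cornea, had 25.3 and 26.4 CPM with DDR and 25.6 and 26.3 CPM with Roc, against 36.8 and 37.8 CPM with DMSO in MG-63. Both compounds lowered it to nearly the same level (-0.53 ± 0.090, adjusted p = 6.49e-05 with DDR and -0.52 ± 0.091, adjusted p = 2.47e-04 with Roc). These folds lie at the fold minimum, and they were -0.50 without MG-63 DMSO replicate 2 (adjusted p = 0.00317) and -0.50 without MG-63 DDR replicate 1 (adjusted p = 0.00133) for DDR, and -0.50 without MG-63 DMSO replicate 2 (adjusted p = 0.009) for Roc. In Saos2, COL8A1 had 2.02, 2.51 and 2.52 CPM with DDR and 1.34, 1.15 and 1 CPM with Roc, against 3.48, 2.92 and 4.55 CPM with DMSO, with no overlap among the 3 groups. It fell with Roc (-1.65 ± 0.28, adjusted p = 5.16e-05) and did not pass with DDR (-0.64 ± 0.26, adjusted p = 0.0796). COL10A1 had 57.7, 50.1 and 70.2 CPM with DDR and 55.6, 55 and 61.1 CPM with Roc, against 55.2, 51.9 and 56.6 CPM with DMSO in Saos2 and was not called (interval -0.093 to 0.34 with DDR and -0.14 to 0.28 with Roc).

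Of the beaded filament chains, COL6A1 rose in MG-63 under DDR and in Saos2 under Roc, and COL6A3 fell with Roc in Saos2. COL6A1 had 515 and 577 CPM with DDR and 439.9 and 509.6 CPM with Roc, against 344 and 329 CPM with DMSO in MG-63. All treated libraries lay above DMSO, with a call for DDR (0.70 ± 0.082, adjusted p = 5.03e-07) and a fold just under the minimum for Roc (0.50 ± 0.081). In Saos2, COL6A1 had 885, 1206 and 814 CPM with DDR and 1340.3, 1356 and 1338 CPM with Roc, against 1035, 961 and 857 CPM with DMSO. The Roc libraries lay above DMSO (0.50 ± 0.11, adjusted p = 6.26e-04), and the DDR libraries overlapped with DMSO (0.026 ± 0.11). The Roc call sits at the fold minimum: it was 0.43 to 0.48 (adjusted p of 4.16e-06 to 0.00591) without any 1 of Saos2 DMSO replicate 2, Saos2 DMSO replicate 3, Saos2 Roc replicate 1, Saos2 Roc replicate 2, Saos2 Roc replicate 3 and Saos2 DDR replicate 2. It was also lost with DESeq2, RLE size factors, total counts and both other filters on low counts, at 0.41 to 0.50.

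COL6A2, its partner, had 412, 588 and 399.7 CPM with DDR and 702, 681 and 702 CPM with Roc, against 554, 494 and 429.6 CPM with DMSO in Saos2. In MG-63 it had 468 and 524 CPM with DDR and 410.1 and 518 CPM with Roc, against 361 and 355 CPM with DMSO. It was not called against DMSO (-0.079 and 0.50 in Saos2, 0.47 and 0.38 in MG-63), and its folds with Roc in Saos2 and with DDR in MG-63 lay just under the minimum. COL6A3 had 35.8, 18.1 and 40.9 CPM with DDR and 21.3, 25.1 and 17 CPM with Roc, against 33.9, 37.6 and 33.5 CPM with DMSO in Saos2. Roc lowered it (-0.73 ± 0.19, adjusted p = 0.00442), with every Roc library below every DMSO library, while DDR replicate 2 lay apart from the other DDR libraries (-0.14 ± 0.19). In MG-63, where it is the highest chain, COL6A3 had 6381 and 6824 CPM with DDR and 5939 and 7308 CPM with Roc, against 4846 and 4857 CPM with DMSO and was under the fold minimum (0.44 and 0.45). COL7A1, the chain of the anchoring fibrils of skin, was not called in either line, and COL6A5 and COL6A6 had at most 4 reads in any library.

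COL12A1 (ENSG00000111799, GRCh37 chr6:75794042-75915983), which binds fibrils of type I, was the FACIT chain with calls in most comparisons. It had 2316, 2262 and 2554 CPM with DDR and 3316, 2626 and 3053 CPM with Roc, against 1386, 1234 and 1651 CPM with DMSO in Saos2, and the 3 groups did not overlap. It rose with DDR (0.74 ± 0.097, adjusted p = 5.05e-06) and likewise with Roc (1.07 ± 0.097, adjusted p = 1.04e-08). In MG-63 it had 1237 and 1226 CPM with DDR and 1046 and 1167 CPM with Roc, against 848 and 802 CPM with DMSO. DDR was called there (0.58 ± 0.077, adjusted p = 3.00e-06), and Roc lay above DMSO under the fold minimum (0.42 ± 0.077, adjusted p = 3.45e-04).

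COL16A1, a FACIT chain of skin and cartilage, rose with Roc in Saos2, where it had 2.29, 1.83 and 1.32 CPM with DDR and 4.16, 3.5 and 3.78 CPM with Roc, against 1.97, 1.64 and 0.647 CPM with DMSO (1.44 ± 0.33, adjusted p = 0.00145). Its DDR libraries overlapped with DMSO (0.37 ± 0.34), and in MG-63, where it stood at 44.6 to 59.8 CPM, it was not called. COL22A1, named after its values were seen, fell with Roc in Saos2 on overlapping groups (9.05, 13.8 and 7.89 CPM, against 18.2, 17.1 and 13 CPM with DMSO, -0.65 ± 0.22, adjusted p = 0.0207). Its value was -0.59 to -0.52 (adjusted p of 0.072 to 0.0942) without any 1 of Saos2 DMSO replicate 1, Saos2 Roc replicate 1 and Saos2 Roc replicate 3, and DESeq2 did not call it. COL14A1, which also binds such fibrils, stayed at 321 to 408 CPM in Saos2 and 58.3 to 80.5 CPM in MG-63 and was not called. The type IX chains, COL19A1, COL20A1 and COL21A1 were at or under 3.32 CPM and were not called where tested, and exons of COL9A3 and COL19A1 overlap those of TCFL5 and LMBRD1 on the other strand.

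COL13A1 (ENSG00000197467, GRCh37 chr10:71561636-71724031), a transmembrane chain known from the neuromuscular junction and from cell-matrix contacts, fell in every comparison against DMSO. It had 55, 47 and 27 reads with DDR and 6, 24 and 8 with Roc in Saos2, against 119, 160 and 113 with DMSO. As CPM these were 1.61, 1.62 and 0.851 with DDR and 0.206, 0.614 and 0.211 with Roc, against 3.84, 4.03 and 2.81 with DMSO. No group overlapped with another there, and the log2 fold changes were -1.38 ± 0.37 (adjusted p = 0.00639) with DDR and -3.32 ± 0.42 (adjusted p = 1.21e-06) with Roc. In MG-63 it had 11 and 21 reads with DDR and 17 and 23 with Roc, against 69 and 91 with DMSO. It fell by 2.27 (SE 0.43, adjusted p = 1.95e-04) with DDR and by 1.56 (SE 0.41, adjusted p = 0.00957) with Roc. The Roc value in MG-63 was -1.46 without MG-63 DMSO replicate 2 (adjusted p = 0.101) and -1.53 without MG-63 Roc replicate 2 (adjusted p = 0.0584).

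COL25A1, a transmembrane chain found in amyloid plaques and, in mice, needed for motor innervation, had 8.59, 8.57 and 7.63 CPM with DDR and 6.81, 8.34 and 7.13 CPM with Roc, against 9.71, 14 and 13.7 CPM with DMSO in Saos2. Both treated groups lay below DMSO (-0.60 ± 0.16, adjusted p = 0.00659 with DDR and -0.75 ± 0.16, adjusted p = 6.19e-04 with Roc). The DDR value was -0.52 without Saos2 DMSO replicate 2 (adjusted p = 0.0506). COL23A1 was measured in MG-63 at 11.1 to 17.0 CPM and was not called, and COL17A1, a chain of epithelial hemidesmosomes, had at most 6 reads in any library.

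COL18A1, which carries the endostatin domain, had 30.4, 48.3 and 23.2 CPM with DDR and 45.2, 40.4 and 44.7 CPM with Roc, against 61.1, 53.2 and 38.2 CPM with DMSO in Saos2. It was called with DDR (-0.58 ± 0.18, adjusted p = 0.0204) although DDR replicate 2 lay within the DMSO range. The value was -0.55 to -0.37 (adjusted p of 0.0589 to 0.132) without any 1 of Saos2 DMSO replicate 1, Saos2 DMSO replicate 2, Saos2 DDR replicate 1 and Saos2 DDR replicate 3, and DESeq2 did not call it. In MG-63 it was higher with both compounds under the fold minimum (0.45 and 0.35). Exons of COL18A1 overlap those of SLC19A1 on the other strand, and whether HTSeq counted by strand was not given in the sources used here. COL15A1 was not called in either line, and COL28A1 was not called in Saos2 and was too low to test in MG-63.

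**Figure D3:**
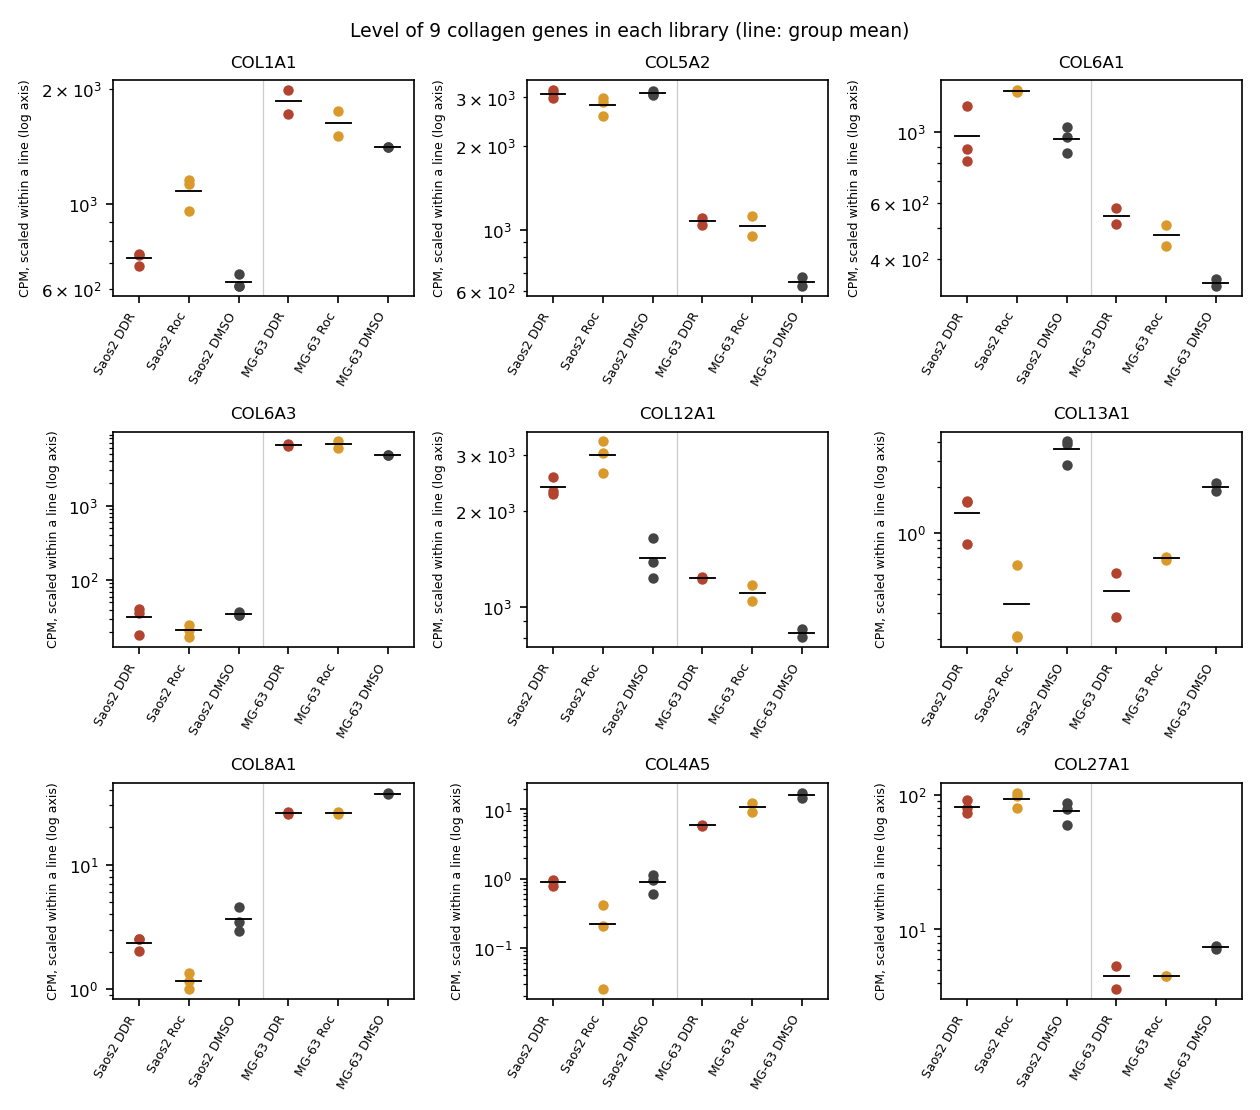
Level of 9 collagen genes in each library, as CPM scaled within a line on log axes that differ between panels. Points are libraries and the short line is the group mean, with DDR, Roc and DMSO of Saos2 on the left and of MG-63 on the right. COL12A1 is lowest with DMSO in both lines, COL13A1 is highest with DMSO in both, and COL5A2 is lowest with DMSO in MG-63 alone.

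Set against each other, at unequal concentrations, Roc and DDR differed in few chains. In Saos2, Roc libraries held 3 of 34 tested members at a higher and 2 at a lower level than DDR libraries did, where 3.76% of all tested genes were called (2.46% higher and 1.30% lower). COL13A1 was lower with Roc (-1.94 ± 0.43, adjusted p = 0.00492) and COL1A1 higher (0.58 ± 0.077, adjusted p = 4.65e-05), and both calls held whichever library was left out. COL8A1 was lower (-1.02 ± 0.28, adjusted p = 0.0238), with values of -1.04 to -0.94 (adjusted p of 0.0648 to 0.0933) without any 1 of Saos2 Roc replicate 2, Saos2 Roc replicate 3 and Saos2 DDR replicate 3, and limma-voom did not call it. COL6A2 was higher (0.57 ± 0.11, adjusted p = 0.00213), with values of 0.50 without Saos2 DDR replicate 1 (adjusted p = 0.0272) and 0.48 without Saos2 DDR replicate 3 (adjusted p = 0.00949). COL16A1 was higher (1.07 ± 0.33, adjusted p = 0.0409), with values of 0.89 to 1.28 (adjusted p of 0.0558 to 0.152) without any 1 of Saos2 DMSO replicate 2, Saos2 Roc replicate 1, Saos2 Roc replicate 2, Saos2 Roc replicate 3, Saos2 DDR replicate 1 and Saos2 DDR replicate 3, and total counts did not call it. The count called was 3 without DDR replicate 1, 10 without DDR replicate 2 and 2 without DDR replicate 3. COL12A1 was not called between the compounds (interval 0.13 to 0.53), nor was COL25A1 (-0.49 to 0.18).

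In MG-63, Roc libraries held 1 of 25 tested members at a higher and 1 at a lower level than DDR libraries did, where 1.20% of all tested genes were called (0.647% higher and 0.555% lower). COL4A5 was higher with Roc (9.27 and 12.6 CPM, against 5.99 and 5.77 CPM with DDR, 0.91 ± 0.16, adjusted p = 0.00202), at 0.66 without MG-63 Roc replicate 2 (adjusted p = 0.0551). COL11A1 was lower with Roc (-3.74 ± 1.05, adjusted p = 0.044), which rests on the 145 reads of DDR replicate 2. Its value was -4.96 to 2.30 (adjusted p of 0.0817 to 0.656) without any 1 of MG-63 Roc replicate 1, MG-63 Roc replicate 2 and MG-63 DDR replicate 2, and neither DESeq2, limma-voom, total counts nor the fit with a replicate block called it (-3.41, adjusted p = 0.0895 with the block). On leaving out a library, 1 member was called without Roc replicate 1 or without DDR replicate 2, and 0 were called without Roc replicate 2. The intervals of Roc minus DDR were -0.18 to 0.19 for COL6A3, -0.22 to 0.12 for COL5A2 and -0.19 to 0.20 for COL8A1, which is no proof that the compounds act alike.

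The responses of the lines were compared as a difference of log2 fold changes, Saos2 minus MG-63, in 1 fit of all 15 libraries. For DDR, 2 members were higher and 3 lower in Saos2, of 38 tested, where 13.3% of all tested genes were called (6.95% higher and 6.31% lower). COL5A2 was lower (-0.69 ± 0.12, adjusted p = 2.45e-04), where COL5A2 rose in MG-63 and was not called in Saos2. COL4A5 was higher (1.47 ± 0.44, adjusted p = 0.0232), with values of 1.24 to 1.48 (adjusted p of 0.0506 to 0.105) without any 1 of MG-63 DMSO replicate 2, MG-63 DDR replicate 1, MG-63 DDR replicate 2 and Saos2 DMSO replicate 3, and limma-voom did not call it. COL6A1 was lower (-0.64 ± 0.17, adjusted p = 0.00948), at -0.54 without MG-63 DDR replicate 2 (adjusted p = 0.0668). COL18A1 was lower (-0.99 ± 0.28, adjusted p = 0.0146), with values of -1.01 to -0.85 (adjusted p of 0.0505 to 0.063) without any 1 of MG-63 DMSO replicate 1, MG-63 DMSO replicate 2, MG-63 DDR replicate 2 and Saos2 DMSO replicate 1. COL27A1 was higher (0.86 ± 0.23, adjusted p = 0.0109), at 0.61 without MG-63 DDR replicate 2 (adjusted p = 0.126), and limma-voom did not call it. The count called was 3 without MG-63 DMSO replicate 2 and 2 without MG-63 DDR replicate 2.

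For Roc, 5 members were higher and 4 lower in Saos2, of 38 tested, where 13.0% of all tested genes were called (8.38% higher and 4.63% lower). COL12A1 (0.69 ± 0.15, adjusted p = 0.0014), COL16A1 (1.27 ± 0.31, adjusted p = 0.00484) and COL27A1 (1.06 ± 0.23, adjusted p = 0.00227) were higher whichever library was left out, though limma-voom did not call COL27A1. COL1A1 was higher (0.62 ± 0.13, adjusted p = 9.42e-04), at 0.49 without MG-63 Roc replicate 1 (adjusted p = 0.0148). COL5A2 (-0.77 ± 0.12, adjusted p = 3.58e-05), COL6A3 (-1.13 ± 0.26, adjusted p = 0.00356) and COL8A1 (-1.09 ± 0.24, adjusted p = 0.00211) were lower whichever library was left out. COL6A3 fell in Saos2 with Roc, and its value in MG-63 was 0.45.

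The calls of COL24A1 and COL25A1 in the Roc response rest on MG-63 counts near 0. COL24A1 had 0 and 1 reads with Roc and 3 and 9 with DMSO in MG-63, and its fitted difference of 3.02 was 2.15 to 5.76 (adjusted p of 0.0514 to 0.391) without any 1 of MG-63 DMSO replicate 2, MG-63 Roc replicate 1, MG-63 Roc replicate 2, Saos2 DMSO replicate 1, Saos2 DMSO replicate 2, Saos2 Roc replicate 2 and Saos2 Roc replicate 3. DESeq2, limma-voom and total counts did not call it. COL25A1 had 0 and 5 reads with Roc and 0 and 0 with DMSO, and its fitted difference of -5.62 was -5.63 to -0.77 (adjusted p of 0.104 to 1) without any 1 of MG-63 DMSO replicate 1, MG-63 DMSO replicate 2 and MG-63 Roc replicate 2, and limma-voom did not call it. Fitted differences of such counts depend on the prior count and are no measure of size.

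**Figure D4:**
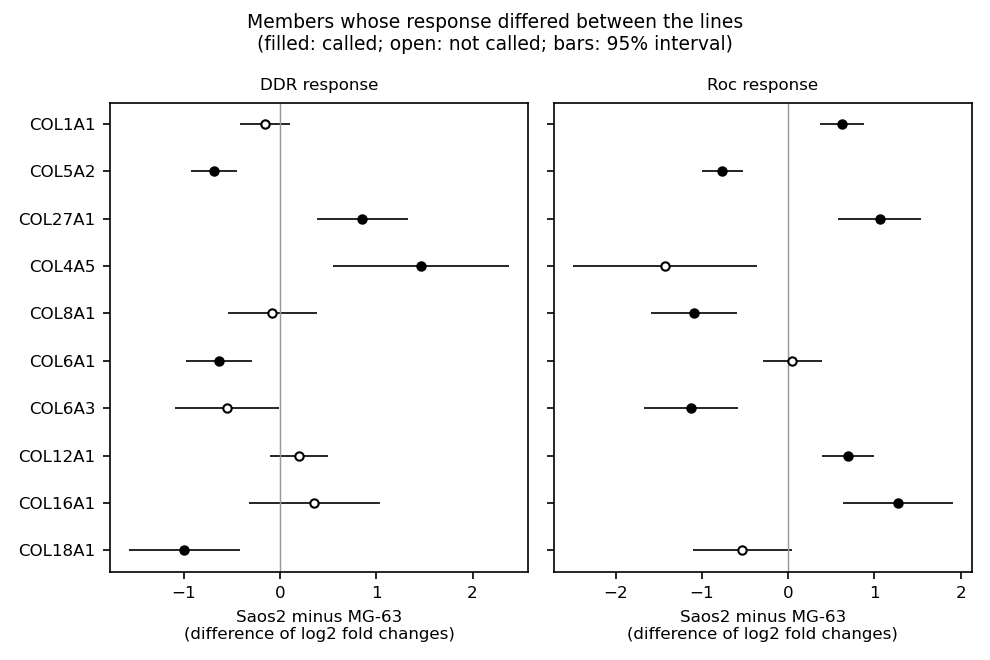
Difference between the lines in the log2 fold change over DMSO, Saos2 minus MG-63, with its 95% interval, for 10 of the 12 members called for DDR or Roc. COL24A1 and COL25A1 are left out because no MG-63 library held 10 of their reads. Filled circles were called and open circles were not: COL5A2 lies left of 0 and COL27A1 right of 0 in both panels.

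The genes that modify, export, cross-link, bind and degrade collagen were followed with lists drawn from general knowledge. The counts that follow stand beside shares over all tested genes of 7.55% higher and 6.73% lower with DDR and 13.5% higher and 10.4% lower with Roc in Saos2, and of 9.01% higher and 7.74% lower with DDR and 4.57% higher and 2.53% lower with Roc in MG-63. Of 13 tested enzymes of chain hydroxylation and glycosylation, DDR lowered 2 in Saos2, Roc raised 1 and lowered 3 there, DDR raised 2 and lowered 2 in MG-63, and Roc raised 2. The list's median log2 fold changes in that order were -0.33, -0.23, 0.17 and 0.18. P3H4, a partner of lysyl hydroxylase, fell with both compounds in Saos2 (-0.84 and -1.05) and with DDR in MG-63 (-0.58). COLGALT1, which adds galactose to hydroxylysine, fell with both in Saos2 (-0.68 and -0.72). P3H2, a prolyl hydroxylase, rose with both in MG-63 (1.30 and 0.77).

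Of 15 tested genes of folding and export, DDR lowered 2 and Roc 4 in Saos2, and DDR lowered 4 in MG-63, where edgeR called 0 with Roc and 8 had an unadjusted p under 0.05 (medians -0.29, -0.23, -0.20 and -0.075). FKBP7, a prolyl isomerase of the endoplasmic reticulum, fell with both compounds in Saos2 (-0.83 and -1.44) and with DDR in MG-63 (-0.69). KDELR2, the receptor that returns chaperones to that compartment, fell with both in Saos2 (-0.68 and -0.73), and FKBP9, a relative of FKBP7, fell with Roc there (-0.67). The collagen-specific chaperone SERPINH1 was not called in these comparisons.

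Of the genes of propeptide processing and cross-linking, DDR raised 1 and lowered 2 and Roc raised 4 and lowered 3 among 12 tested in Saos2, and each compound raised 1 and lowered 1 among 11 tested in MG-63 (medians -0.16, 0.064, 0.020 and -0.004). PCOLCE2, an enhancer of procollagen C-proteinase, fell in all 4 comparisons (-0.64, -0.66, -0.97 and -0.57). It had 35.9, 36.1 and 36.8 CPM with DDR and 37.7, 33.7 and 36 CPM with Roc in Saos2, against 60.1, 54.6 and 55.3 CPM with DMSO. BMP1, the proteinase itself, rose with both compounds in MG-63 (0.81 and 0.61), and its response differed between the lines with both (-1.18 and -0.68). LOXL4, a cross-linking oxidase, rose with Roc in Saos2 (1.32).

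Of the fibril-associated proteins, DDR raised 1 and Roc raised 1 and lowered 1 among 9 tested in Saos2, and DDR raised 4 and lowered 2 and Roc raised 2 and lowered 1 among 11 tested in MG-63 (medians -0.19, -0.43, 0.19 and 0.11). POSTN (periostin) fell with both compounds in MG-63 (-1.53 ± 0.078 and -1.11 ± 0.077), where it had 101 and 103 CPM with DDR and 127 and 146 CPM with Roc, against 290.5 and 298 CPM with DMSO. DCN (decorin), a proteoglycan that coats fibrils, rose with both there (0.74 and 0.55), and THBS1 (thrombospondin) rose with DDR (0.89).

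Of the collagen receptors, DDR lowered 2 and Roc raised 1 and lowered 3 among 9 tested in Saos2, and each compound lowered 1 among 10 tested in MG-63 (medians -0.19, -0.19, -0.14 and 0.023). ITGA2, a collagen-binding integrin chain, fell with both compounds in Saos2 (-0.97 ± 0.15 and -1.99 ± 0.15) and was not called in MG-63. Its response differed between the lines with both (-0.76 and -1.92). ITGA10 fell with both in Saos2 (-1.12 and -1.31), and their shared partner ITGB1 fell with Roc (-0.70).

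Of the genes of collagen degradation, DDR lowered 4 and Roc raised 1 and lowered 5 among 9 tested in Saos2, and DDR raised 1 and lowered 2 and Roc raised 1 and lowered 1 among 10 tested in MG-63 (medians -0.49, -0.66, -0.12 and -0.062). MMP1, the collagenase that cuts fibrils of types I to III, had 27.6 and 30.5 CPM with DDR and 33.6 and 39.8 CPM with Roc in MG-63, against 172 and 185 CPM with DMSO (-2.62 ± 0.089 and -2.27 ± 0.089). MMP13, another collagenase, fell with Roc in Saos2 (-2.47), and TIMP2, an inhibitor of these enzymes, fell with both compounds there (-0.76 and -0.80).

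Of the transcription factors known to act on collagen genes, DDR raised 6 and Roc 8 among 14 tested in Saos2, and DDR raised 4 and lowered 1 and Roc raised 2 and lowered 1 among 12 tested in MG-63 (medians 0.44, 0.77, 0.18 and 0.13). SMAD3, which carries TGF-beta signals, rose in all 4 comparisons (0.62, 1.20, 1.01 and 0.78). SP7 (osterix), an osteoblast factor that is also in the osteoblast marker list, rose with both compounds in Saos2 (0.75 and 1.10). SOX9, a cartilage factor that is also in the chondrocyte marker list, rose with both compounds in Saos2 (1.02 and 1.20) and fell with both in MG-63 (-1.66 and -1.33). That difference between the lines was 2.71 ± 0.19 (adjusted p = 4.50e-09) with DDR and 2.58 ± 0.19 (adjusted p = 2.58e-09) with Roc. No link between these factors and the collagen chains was tested.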

How the data were processed

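The deposited gene values used here are raw counts of paired reads (100 bp) from 15 stranded TruSeq mRNA libraries. Per the study's methods and the submitters' processing notes, the authors filtered reads with Bowtie 2 (2.5.1), aligned them with STAR (2.7.3a) to hg19 (GRCh37) and counted with HTSeq (0.11.2). Annotation release and strand setting were not given in the sources used here. The other 55 per-sample columns (normalized counts and repeats of the raw counts) and the authors' DESeq2 fold changes and p-values were not used.

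Counts were tested in R 4.3.3 with edgeR 4.0.16 (filterByExpr, TMM, glmQLFit and glmQLFTest), the 3 groups of a line in 1 fit, or 6 groups of 15 libraries for the lines, with p-values adjusted over all genes tested by Benjamini-Hochberg. A call needs an adjusted p not above 0.05 and a log2 fold change of 0.5 or more in size. Fold changes are followed by ± SE, intervals are 95%, and CPM are counts scaled to TMM library sizes. Each SE is the size of the fold change divided by the square root of the test's F statistic, not a separate estimate. The intervals are built from that SE, so for large folds on few reads both can be too narrow. Levels per kilobase use exons of the canonical transcript (GENCODE v44 lifted to GRCh37), and exon lengths come from the same annotation. Another choice of length would shift a ratio of partner chains by the same factor in every group, so the size of such a ratio depends on it. The test was run on simulated counts with known changes in well-counted genes only. That run does not cover calls on few reads or folds near the minimum. Same-numbered DDR and DMSO libraries of Saos2 deviated together over genes (correlations of 0.118, 0.111 and 0.254, against -0.195 to 0.0703 for different numbers), so these numbers may pair the samples, though the labels name no shared batch. Replicates differed by more than sampling noise in every pair (chi-square per degree of freedom of 6.90 to 25.8), so none was counted as repeat sequencing of a library. The largest values were those of Saos2 DDR replicate 2 (21.5 and 25.8) and Saos2 DMSO replicate 3 (21.3 and 17.3). This measure does not tell repeat preparations from separate cultures.

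Members, lists and families were chosen with earlier results of these data known. Members named with values are those called against DMSO in at least 2 comparisons, between the compounds or between the lines, 14 well-known chains and the 3 highest chains per line, plus, of each of 7 lists, the 3 genes of smallest p. Alternatives used DESeq2 1.42.0, limma-voom (3.58.1), different filters and scalings, fits of only the compared groups, a replicate block, other fold minimums and leaving out each library.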

Additional observations from a re-analysis of the deposited data

Results flagged for a closer look

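The response to a compound was compared between the lines by the difference of log2 fold changes (Saos2 minus MG-63) in edgeR's quasi-likelihood test. With DDR it differed for 5 of 38 tested members (13.2%), near the 13.3% called among all tested genes. These were COL4A5 (1.47), COL27A1 (0.86), COL5A2 (-0.69), COL6A1 (-0.64) and COL18A1 (-0.99). Of them only COL5A2 stayed called whichever library was left out. With Roc the response differed for 9 of 38 tested members (23.7%), where 13.0% of all tested genes were called. COL1A1 (0.62), COL12A1 (0.69), COL16A1 (1.27), COL24A1 (3.02) and COL27A1 (1.06) were higher in Saos2. COL5A2 (-0.77), COL6A3 (-1.13), COL8A1 (-1.09) and COL25A1 (-5.62) were lower there. The calls of COL1A1, COL24A1 and COL25A1 did not hold whichever library was left out. The values for COL24A1 and COL25A1 rest on MG-63 libraries with at most 9 and 5 reads.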

How the results depend on the processing

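Over 192 pairs of a member and a comparison, 4011 alternative results were set against the main one. Those for other fold minimums are the main fit with another cutoff. With 1 library left out, 1872 kept their state (called or not called), 67 lost a call, 47 gained one and 3 reversed in sign. Under the other alternatives 1909 kept their state, 49 lost a call, 64 gained one and 0 reversed. A reversal was counted only where the main or the alternative result was called, so any sign change of an uncalled pair counts as kept. Of 50 calls of members (DMSO levels between the lines aside), 25 held whichever library was left out. Under every other tool, scaling, filter, block and group choice that tested the gene, 39 held, and 24 held under all of these. Among the 39 in Saos2, COL4A6 with DDR was tested in 7 such alternatives and COL4A5 with Roc in 8, against 9 for other calls. The reversals are all of COL11A1 in MG-63 without DDR replicate 2, whose 145 reads set its value: -5.14 for DDR over DMSO, 2.30 for Roc over DDR and 5.14 for the DDR response between the lines. With each library left out in turn, these values ranged from -5.14 to 1.89, -4.96 to 2.30 and -1.93 to 5.14.

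The number of members called for Roc over DDR in MG-63 was 2, and 1 with DESeq2, with limma-voom, with total counts, with the compared groups alone, with the replicate block or with a log2 fold minimum of 1. The block raised the count for Roc over DDR in Saos2 to 8, against 5. Without a fold minimum 14 of 25 tested members were called for DDR (8 with it) and 13 for Roc (6) in MG-63. For Roc over DDR in Saos2 the count was 10. Shares of all tested genes under other fold minimums are not given here, so these counts are not set against them. With a log2 fold minimum of 1 the counts were 2 for DDR and 1 for Roc in MG-63, and 2 for DDR (5), 5 for Roc (10) and 3 for Roc over DDR in Saos2. For the DDR response between the lines, limma-voom called 3, no low-count filter 9 and a fold minimum of 1 called 1, against 5.

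With 1 library left out the counts ranged from 7 to 10 for DDR, 3 to 11 for Roc and 0 to 2 for Roc over DDR in MG-63, and from 2 to 6, 8 to 12 and 2 to 10 in Saos2. Between the lines they ranged from 2 to 6 for DDR, 7 to 11 for Roc and 27 to 30 for DMSO levels. Deviations of same-numbered Roc and DDR libraries of Saos2 correlated at -0.0232 to 0.0986, against -0.108 to 0.0447 for different numbers. For Roc and DMSO in Saos2 these were 0.00458 to 0.0558, against -0.0547 to 0.0335. In MG-63 same numbers correlated at -0.0176 to 0.0259, where 2 libraries in a group make the deviations mirror images. Correlations this low do not settle whether those samples were paired. For DDR over DMSO in Saos2 the block changed no call of a member given here. Levels from FPKM were not analysed here, since none of the columns used holds them. In MG-63 15 members and in Saos2 8 had under 10 reads in every library, and changes in them were not detectable at this depth.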
